A study of Mus musculus with 16 samples.

Results

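The transcriptome of wild-type (WT) mouse heart slices that had been kept in culture without hypoxia was described from 4 of the 16 RNA sequencing libraries of the study, namely those labelled as untreated and wild type. The slices came from the hearts of C57Bl6/J mice aged 8 weeks and were cultured for 14 days at 21% oxygen, and the other groups of the study, which were not compared here, carried a transcriptional stop signal in the long noncoding RNA Swhtr or passed through 7 days at 3% oxygen. According to the study's methods the mice were male, the apex and base of the heart were removed, and the slices were kept in DMEM with fetal bovine serum. The study states that the slices of each genotype derived from 4 mice and from more than 1 litter. Which mouse or litter each library came from is not given. The spread between the 4 libraries may thus hold technical as well as biological differences, and differences between litters cannot be told apart from these. All 55487 genes of the count table were ranked, of which 28358 had at least 1 count, and the library totals lay between 18653443 and 21633240 counts.

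The adult heart is built of cardiomyocytes, which hold most of its mass and contract by means of sarcomeres, and of fibroblasts, endothelial cells, pericytes, smooth muscle cells, macrophages, epicardial cells and glia. Fibroblasts make the collagen matrix, and macrophages clear dying cells, degrade them in lysosomes and store or export their lipids. The count data are of bulk RNA, so that fewer cells of a type and less RNA per cell cannot be told apart. Levels are given as CPM, the counts of a gene per 1000000 counts of its library after normalization by TMM, and where genes of different length are set against each other as TPM, which divides the counts by the exon length first. Errors are standard deviations over the 4 libraries (SD, n = 4). A gene without a count in the 4 libraries could still be present at up to 0.0374 CPM, the level of 3 counts over the 4 libraries, and this limit covers counting error only.

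The labels give the tissue as heart, and the markers of cardiomyocytes differed widely in level, with the myosins, troponins and cardiac actin of the sarcomere at means under 5 CPM. The alpha myosin heavy chain Myh6, the major motor protein of the adult mouse ventricle, was at 0.367, 0.157, 0.658 and 0.192 CPM in libraries 1 to 4. The atrial natriuretic peptide gene Nppa, its relative Nppb, the slow myosin heavy chain Myh7 and the muscle creatine kinase Ckm had 0 counts in the 4 libraries, and for Nppa, which shares 61.5% of its exon bases with another gene, this is uncertain. Nkx2-5, the cardiac transcription factor next to which Swhtr is transcribed, was at 0, 0.262, 0.047 and 0.0481 CPM and thus close to 0 in each library. The highest markers of the list were the calcium pump gene Atp2a2 (287 ± 9.1 CPM) and the exchanger Slc8a1 (68.7 ± 4.45 CPM), which other cells also express, followed by the intermediate filament gene Des (12.4 ± 5.89 CPM) and Tnnt2 (4.76 ± 4.82 CPM). Of the 30 cardiomyocyte markers, 12 were above 1 CPM, and the median over the 30 was 0.58 CPM. Of all genes in the table, 25.6% were above 1 CPM, and of the protein-coding genes 57.9%. Counts of listed genes above 1 CPM can be read against these shares, for marker lists against that of protein-coding genes. Genes of other organs, taken as a reference for background, were above 1 CPM in 2 of 25 cases, with Cela1 at 6.66 CPM the highest. The Y-linked genes Ddx3y, Eif2s3y (51.4 ± 5.19 CPM), Kdm5d (30.6 ± 1.7 CPM) and Uty (24.6 ± 1.84 CPM) were present, and Xist, the RNA of the inactive X chromosome, was at 0.0775 ± 0.0682 CPM.

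Counts were spread over many genes. The 10 highest genes took 8.03% ± 0.52 of the counts of a library, the 100 highest 24.9% ± 0.828 and the 1000 highest 54.7% ± 0.745. A mean above 1 CPM was reached by 14225 genes, of which 12731 were protein-coding, a mean above 100 CPM by 2039 and a mean above 1000 CPM by 84. Among the 30 highest genes with a regular symbol, 5 were collagen chains, 4 other matrix proteins, 6 lysosomal genes and 6 markers of lipid-associated macrophages, and a gene could belong to several lists. The cytoskeleton was represented by Vim (3381 ± 141 CPM), Actb (3305 ± 92.5 CPM) and Actg1 (2351 ± 103 CPM). Eef1a1 (4997 ± 112 CPM), the elongation factor of translation, had the lowest coefficient of variation of the 30 (2.23%), and the highest gene of the mitochondrial genome was mt-Co1 (6474 ± 306 CPM). No gene of the cardiomyocyte list was among the 100 highest genes.

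**Figure D1:**
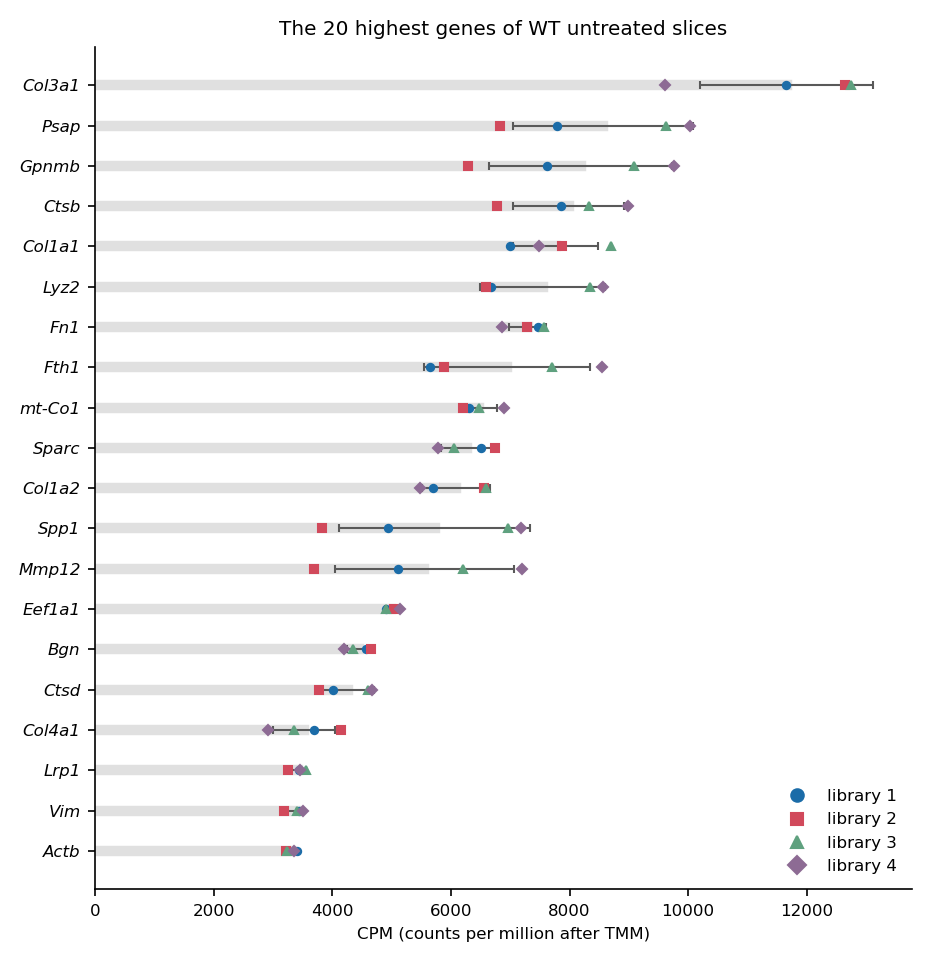
CPM of the 20 highest genes with a regular symbol, with 1 marker per library, grey bars from 0 to the mean and error lines for the SD of the 4 libraries. Col3a1 leads at 11661 CPM, library 4 (diamonds) is lowest for Col3a1, Col1a2, Sparc and Col4a1, and library 2 (squares) is lowest for Psap, Gpnmb, Ctsb, Spp1 and Mmp12.

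Col3a1, which encodes the chain of type III collagen, was the highest gene of all by share of counts (chr1:45311538-45349706, GRCm38). It was at 11643, 12646, 12749.9 and 9603 CPM in libraries 1 to 4, with a mean of 11661 ± 1459.7 CPM. Library 4 was the lowest and libraries 2 and 3 were nearly equal. Among collagens, both chains of type I followed, Col1a1 at 7766 ± 722 CPM and Col1a2 at 6082 ± 579 CPM. Per length, Col3a1 (3692 ± 505 TPM) and Col1a1 (3669.6 ± 293 TPM) differed by less than their SD. The basement membrane chains Col4a1 (3526 ± 521 CPM) and Col4a2 (2314 ± 272 CPM) were highest in library 2 and lowest in library 4. All 18 collagen genes of the list were above 10 CPM, with Col11a1 at 15.1 ± 6.64 CPM the lowest, and together they took 4.17% ± 0.382 of the counts.

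Other matrix proteins took 3.41% ± 0.0926 of the counts, and all 24 listed members were above 10 CPM. The adhesive glycoprotein Fn1 was at 7294 ± 314 CPM, the collagen-binding Sparc at 6269.7 ± 436 CPM, the proteoglycan Bgn at 4441 ± 202 CPM and osteopontin, Spp1, at 4934, 3829, 6958 and 7175 CPM. Spp1 was lowest in library 2 and highest in library 4, the library in which Col3a1 was lowest. The elastin gene Eln was at 130.0, 159, 83 and 41.3 CPM, 3.85 times as high in library 2 as in library 4. Among proteases, the macrophage elastase Mmp12 stood at 5107, 3688, 6210.1 and 7198 CPM, far above Mmp14 (587 ± 43.9 CPM), Mmp2 (421 ± 111 CPM) and Mmp3 (321 ± 72.3 CPM) by share of counts. Their inhibitors Timp2 (973 ± 46.7 CPM), Timp1 (439 ± 33.9 CPM) and Timp3 (307 ± 118 CPM) were present, while Timp4, the inhibitor known for its expression in the heart, was at 0.137 ± 0.0987 CPM. The plasminogen activators Plau and Plat were at 369 ± 52.4 CPM and 155 ± 16.3 CPM.

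Markers of fibroblasts were above 1 CPM in 20 of 20 cases with a median of 92.7 CPM, and markers of activated fibroblasts and myofibroblasts in 18 of 18 cases with a median of 389 CPM. Pdgfra, the receptor that defines cardiac fibroblasts, was at 298 ± 20.8 CPM, the collagen receptor Ddr2 at 201 ± 9.22 CPM and the transcription factor Tcf21 at 46.1 ± 15.2 CPM. The lowest members were genes of adventitial and resting fibroblasts, Clec3b (4.37 ± 2.8 CPM), Pi16 (3.44 ± 2.28 CPM) and the ferritin receptor Scara5 (1.88 ± 0.655 CPM). Among genes of activation, the collagen crosslinking enzyme Lox was at 1130.3 ± 60.1 CPM, periostin, Postn, at 695 ± 46.6 CPM and tenascin C, Tnc, at 318 ± 23.8 CPM. The fibroblast protease Fap (23.2 ± 4.55 CPM), Cthrc1 (22.9 ± 5.12 CPM) and Comp (22.5 ± 11.5 CPM) were the lowest of that list. Of the cartilage genes 4 of 8 were above 10 CPM, among them Sox9 (42.8 ± 6.85 CPM) and Acan (18.7 ± 10.5 CPM). Of the bone genes 3 of 7 were, among them Acp5 (30.8 CPM), the highest of that list, and Runx2 (22.1 ± 1.42 CPM). Bglap, Ibsp and Sp7 were under 0.1 CPM, and Matn3 and Col9a1 had 0 counts.

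Macrophage genes included the highest gene per length. Lyz2, the lysozyme of macrophages, had the highest TPM of all genes with a regular symbol and at least 200 exon bases (17752 ± 1969 TPM), ahead of mt-Co1 (12999.5 ± 375 TPM) and Spp1 (10719 ± 2750.3 TPM). In CPM it was at 6673, 6598, 8353 and 8569 CPM, with libraries 1 and 2 under libraries 3 and 4. Of the general macrophage markers, 21 of 22 were above 1 CPM. The receptor Csf1r was at 330.0 ± 6.8 CPM, the surface protein Adgre1 (F4/80) at 326 ± 10.9 CPM, and the 3 chains of complement C1q at 504 ± 10.5 CPM (C1qa), 633 ± 23.9 CPM (C1qb) and 606 ± 36.9 CPM (C1qc). These 5 genes had coefficients of variation between 2.06% and 6.1%, against 23.3% for the cathepsin Ctss and 28.2% for Spp1.

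The genes of lipid-associated macrophages had the highest median of the 27 cell type lists, 1519 CPM, and 16 of 16 were above 100 CPM. The lists were written with earlier results of these data known, so the choice of members may have fixed this rank. Some members are not particular to macrophages, such as Lpl, which the adipocyte list also holds. These cells, known from obesity, atherosclerosis and tissue injury, take up lipids and carry the receptor Trem2, which was at 393 ± 28.6 CPM. Gpnmb, a glycoprotein of lysosomes and the cell surface, was at 7627, 6295, 9086 and 9757 CPM in libraries 1 to 4. The fatty acid transporter Cd36 was at 1972 ± 313 CPM, the lipid droplet protein Plin2 at 1189 ± 128 CPM, Fabp5 at 844 ± 157 CPM, Apoe at 3131 ± 640.0 CPM and the galectin Lgals3 at 2391 ± 311 CPM. The summed level of the list was 34659, 29799, 41277 and 44961 CPM, lowest in library 2 and highest in library 4. By contrast, markers of macrophages that reside in the heart ranged from Gas6 (532 ± 98 CPM) and Mrc1 (128 ± 32.5 CPM) down to Lyve1 (10.6 ± 3.04 CPM), the scavenger receptor Cd163 (0.748 ± 0.235 CPM) and Timd4 (0.0833 ± 0.0985 CPM). Of the monocyte list, 5 of 9 were above 1 CPM, led by Fn1 and Vcan (205 ± 23.3 CPM), which fibroblasts also make, and the markers of recruited monocytes Ccr2 and Ly6c2 were at 0.209 ± 0.161 CPM and 0.153 ± 0.116 CPM. Folr2 (15.7 ± 1.39 CPM) and Itgam (122 ± 19.7 CPM) share over 50% of their exon bases with another gene in the annotation, so their levels are uncertain.

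The lysosomal list of 42 hydrolases, membrane proteins and proton pump subunits took 4.81% ± 0.558 of the counts, and all 42 members were above 10 CPM. Prosaposin, Psap, the precursor of activators of sphingolipid breakdown, was at 7786, 6820.0, 9631 and 10035 CPM. The cathepsins Ctsb (7984 ± 933 CPM), Ctsd (4263 ± 439.5 CPM), Ctss (2583 ± 601 CPM) and Ctsl (2327 ± 523 CPM) were the highest proteases of the list. The lysosomal membrane proteins Lamp1 and Lamp2 were at 785 ± 37.9 CPM and 695 ± 33 CPM, the cholesterol transporters Npc1 and Npc2 at 193 ± 18.1 CPM and 668 ± 66.7 CPM, and the pump subunit Atp6v0d2, which macrophages and osteoclasts make, at 295 ± 45.6 CPM. Library 2 lay under the mean of the 4 libraries in 38 of the 42 genes and library 4 over it in 35. The median deviation on the log2 scale was -0.02, -0.13, 0.05 and 0.11 in libraries 1 to 4, while that of all genes above 1 CPM was 0.01 or less in size in each library.

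The promoters of the lysosomal genes were searched for the E-box CACGTG, the core of the site known for the transcription factors TFEB, TFE3 and MITF. The windows were the 250 bases before each RefSeq start site (build GRCm38.p6), read on both strands, which for this palindrome are the same. A gene with several start sites was counted where any of its windows held the motif. Of the 33 members with a window, 10 did (30.3%), and of all 27025 genes with a window 6.86% did. The longer form, with GT before and AC after these letters, was in 0 of the 33 members and in 0.27% of all genes. The members with CACGTG were Atp6v1a, Ctsa, Ctsd, Ctsf, Ctsl, Gaa, Glb1, Lamp1, Lgmn and Mcoln1, while Psap, Gpnmb and Ctss were among those without it. The windows of Ctsd, at chr7:142387828-142388077 (minus strand), and Lamp1, at chr8:13158911-13159160 (plus strand), are shown 5′ to 3′ as examples with more than 1 match, with the motif in capitals.
Ctsd: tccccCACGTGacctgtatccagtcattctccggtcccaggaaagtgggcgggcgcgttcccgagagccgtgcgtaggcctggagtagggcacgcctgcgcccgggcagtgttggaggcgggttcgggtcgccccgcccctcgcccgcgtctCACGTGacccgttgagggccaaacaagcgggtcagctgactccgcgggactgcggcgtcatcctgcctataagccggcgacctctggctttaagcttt
Lamp1: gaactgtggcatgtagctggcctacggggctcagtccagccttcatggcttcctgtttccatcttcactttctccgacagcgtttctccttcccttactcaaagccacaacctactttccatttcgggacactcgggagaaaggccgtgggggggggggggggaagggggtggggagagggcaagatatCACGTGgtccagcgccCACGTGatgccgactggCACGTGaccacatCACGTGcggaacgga
The Ctsd window held 2 matches, as did that of Mcoln1, and that of Lamp1 held 4. A match is a description of these letters and does not show that a factor was bound. Whether the motif bears on the differences between the libraries was not tested. Of the factors, Tfe3 was at 88.6 ± 2.96 CPM, Mitf at 47.7 ± 2.93 CPM, Tfeb at 27.3 ± 2.03 CPM and Tfec at 8.44 ± 1.21 CPM.

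All 18 genes of lipid uptake, storage and export were above 10 CPM, led by the endocytic receptor Lrp1 (3423 ± 126 CPM) and Apoe, and the cholesterol exporters Abca1 and Abcg1 were at 324 ± 70.3 CPM and 128 ± 26.9 CPM. The 17 genes of cholesterol synthesis were lower by share of counts, with a median of 19.7 CPM. The ferritin heavy chain Fth1 was at 5649, 5883, 7698 and 8548 CPM, with libraries 1 and 2 under libraries 3 and 4. Heme oxygenase, Hmox1, which releases iron from heme, was at 1051, 1162, 1653 and 1847 CPM and followed the same order. The iron exporter Slc40a1 was at 128 ± 32.4 CPM, and the uptake receptor Tfrc at 36.7 ± 5.89 CPM.

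**Figure D2:**
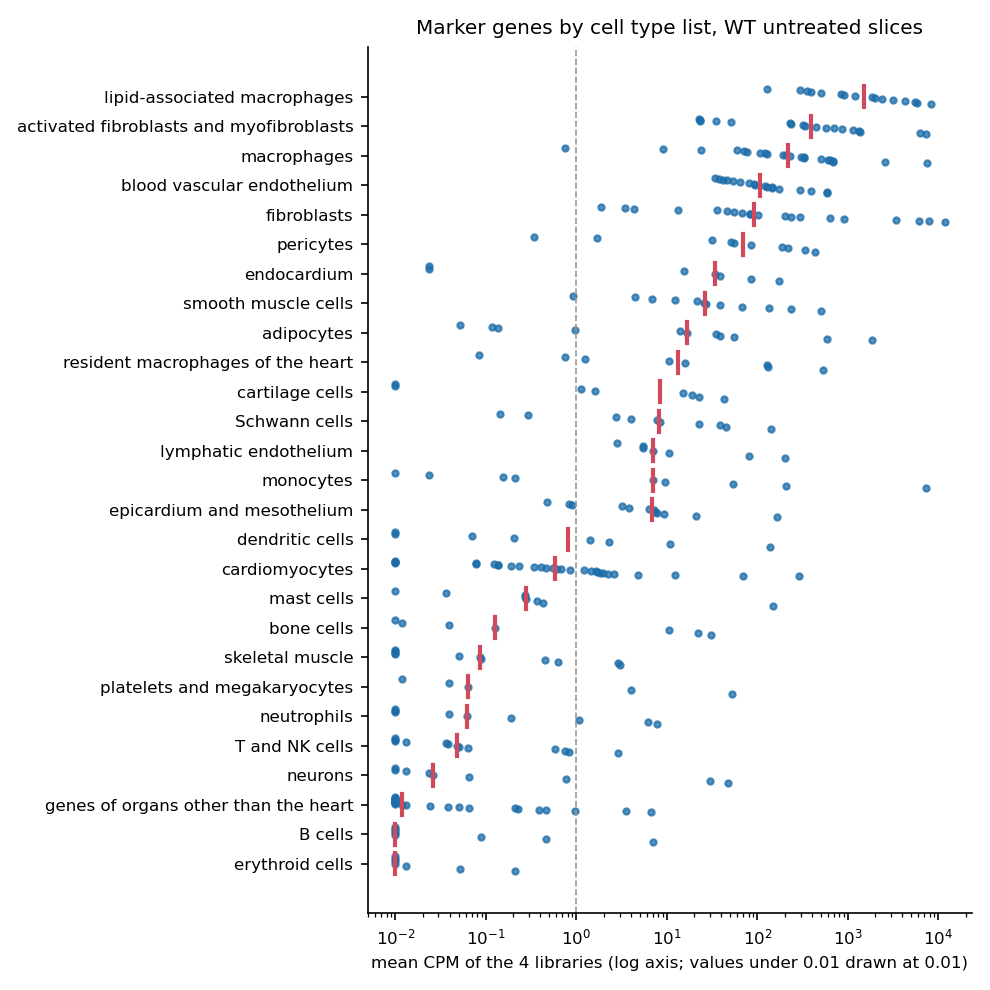
Mean CPM of the 4 libraries for each marker of 27 cell type lists on a log axis, with 1 point per gene, red bars at the list medians and a dashed line at 1 CPM. The lists of general and lipid-associated macrophages, fibroblasts and blood vascular endothelium have medians above 90 CPM, while lists of T and NK cells, B cells, erythroid cells and neurons have medians under 0.1 CPM and cardiomyocytes one of 0.58 CPM.

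Vessels were represented by all 18 endothelial markers at more than 10 CPM, with a median of 108 CPM. The junction protein Cdh5 was at 714, 464, 562 and 607 CPM, Pecam1 at 391 ± 53.9 CPM, the VEGF receptors Kdr and Flt1 at 122 ± 5.92 CPM and 127 ± 12.2 CPM, and the tight junction gene Cldn5 at 45.7 ± 9.34 CPM. Library 2 was the lowest of the 4 libraries for Cdh5 and lay under the mean in 17 of the 18 markers. The endocardial list was above 1 CPM in 5 of 7 cases with a median of 33.7 CPM. Its highest member was Vwf (172 CPM of a summed mean of 344 CPM), which the blood vascular list also holds. Other members included Cdh11 (84.6 ± 23.1 CPM), Nfatc1 (39 ± 2.3 CPM) and Npr3 (15.3 ± 5.01 CPM), and the lowest was at 0.0235 CPM. The lymphatic list was above 1 CPM in 7 of 7 cases with a median of 7.11 CPM, led by Pdpn (204 ± 26.7 CPM) and Flt4 (81.7 ± 6.75 CPM), with Prox1 at 7.11 ± 0.703 CPM. Of the pericyte markers, 9 of 10 were above 1 CPM, among them the growth factor receptor Pdgfrb (436 ± 56 CPM), Notch3 (216 ± 16.4 CPM) and the channel subunits Abcc9 (54.7 ± 6.82 CPM) and Kcnj8 (31.2 ± 3.46 CPM). Rgs5, a signaling regulator of pericytes, was at 97.6, 41.6, 31 and 32.5 CPM, high in library 1 and similar in the other 3.

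Smooth muscle genes differed more between libraries than most lists. Acta2, the smooth muscle actin, was at 296, 304, 189 and 151 CPM, the smooth muscle myosin Myh11 at 38.8, 33.5, 18.6 and 15.9 CPM, and calponin, Cnn1, at 4.44 ± 3.11 CPM. For Acta2 and Myh11, libraries 1 and 2 were above libraries 3 and 4. The summed level of the 12 genes was 1217, 1270.0, 964 and 845 CPM, with a median deviation of 0.43 in library 2 and -0.57 in library 4 on the log2 scale. Tagln, another abundant gene of smooth muscle, was listed at 0.922 ± 0.29 CPM, but 67.9% of its exon bases are shared with another gene and its level is uncertain.

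Most genes of circulating blood cells were under 1 CPM, with exceptions in each list but the erythroid one. Of the erythroid genes, 0 of 7 were above 1 CPM, with Hba-a1 at 0.0524 ± 0.0741 CPM, and of the T and NK cell genes 1 of 13 were, namely Cd4 (2.87 ± 1.34 CPM), which macrophages can also express. The T cell receptor subunit Cd3e was at 0.0628 ± 0.077 CPM, and of the B cell genes 1 of 8 was above 1 CPM, Ighm at 6.95 ± 0.794 CPM, while Ms4a1 and Pax5 had 0 counts. Of the neutrophil genes 3 of 9 were above 1 CPM, namely Mmp8 (7.73 ± 2.29 CPM), Csf3r (6.21 ± 1.06 CPM) and S100a8 (1.07 ± 0.21 CPM), and S100a9, Ly6g and Retnlg had 0 counts. Of the platelet genes 2 of 5 were above 1 CPM, Pf4 (52.6 ± 14.1 CPM) and Itga2b (4 ± 0.902 CPM). The mast cell list was above 1 CPM in 1 of 8 genes, the receptor Kit at 149 ± 30.7 CPM, while the mast cell proteases Cma1, Cpa3, Mcpt4 and Tpsb2 were under 0.5 CPM. Schwann cell genes were above 1 CPM in 8 of 10 cases, with Sox10 at 4.02 ± 1.25 CPM, and neuronal genes in 2 of 9, Uchl1 (47.8 ± 6.59 CPM) and Tubb3 (30.2 ± 7.78 CPM), while Th, Dbh and Snap25 were under 0.1 CPM. Adipocyte genes included adiponectin, Adipoq, at 38.3 ± 13.8 CPM and the lipid droplet protein Plin1 at 34.9 ± 12.3 CPM, whereas leptin, Lep, was at 0.0524 ± 0.0741 CPM.

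Genes of the mesothelium, the epithelium that covers the heart as the outer layer of the epicardium, showed the largest relative differences between the 4 libraries among the 27 cell type lists by median deviation. Mesothelin, Msln, was at 0.314, 24, 5.08 and 0.192 CPM in libraries 1 to 4, the leucine-rich repeat protein Lrrn4 at 0.472, 22.9, 6.82 and 0.577 CPM and the uroplakins Upk3b and Upk1b at 0.367, 19.5, 5.55 and 0.144 CPM and 0.629, 21.1, 7.1 and 0 CPM. These 4 genes were highest in library 2, next in library 3 and at 1 CPM or less in libraries 1 and 4. Bnc1 (0.629, 10.7, 3.57 and 0.144 CPM) and the keratin Krt8 (0, 2.78, 0.846 and 0 CPM) had the same order at their high end. In counts, Msln had 6, 458, 108 and 4, so that the difference was far larger than counting error. The epicardial transcription factor Wt1, at 5.92, 16.2, 9.82 and 4.91 CPM, followed the order less steeply. Aldh1a2 (146, 163, 168 and 178 CPM) and Tbx18 (22.1, 19, 21.2 and 21 CPM), which the epicardial list also holds, did not follow it. Over the 9 members above 1 CPM, the median deviation was -1.16, 2.73, 1.17 and -2.05 on the log2 scale.

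**Figure D3:**
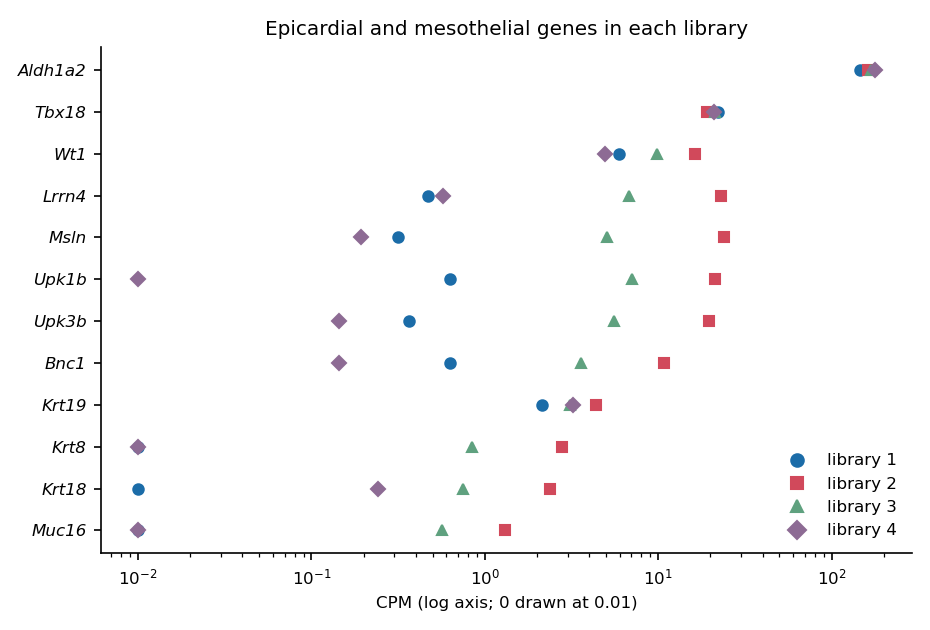
CPM of the 12 epicardial and mesothelial genes in each library on a log axis, with genes ordered by mean level and 1 marker per library. Msln, Lrrn4, Upk1b, Upk3b and Bnc1 lie above 10 CPM in library 2 and under 1 CPM in libraries 1 and 4, while Aldh1a2 and Tbx18 lie close together in the 4 libraries.

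The contractile gene families of the slices consisted mostly of the forms that non-muscle cells use. Among the 6 actins, the cytoplasmic Actb (3831 ± 169.5 TPM) and Actg1 (2745 ± 121 TPM) were highest per length, followed by the smooth muscle Acta2 (335 ± 118 TPM). The cardiac actin Actc1 was at 3.32 ± 3.76 TPM and the skeletal actin Acta1 at 0.909 ± 0.187 TPM. Actc1 was at 0.891, 4.56, 0.705 and 0.673 CPM and thus highest in library 2, and it shared this with the troponin T gene Tnnt2 (2.62, 12, 2.73 and 1.73 CPM) and the atrial light chain Myl7 (0, 1.94, 0.235 and 0.0481 CPM). Of the 12 cardiomyocyte markers above 1 CPM, 10 lay above the mean in library 2. The exceptions were Tnni3 and Tnnc1, which were highest in library 4. Myl2 and Myh6, both under 1 CPM, were highest in library 3. Of the 12 myosin heavy chains, Myh9 (359 ± 23.4 TPM), Myh10 (50.8 ± 7.1 TPM) and Myh11 (11 ± 4.89 TPM) were above 1 TPM, the non-muscle and smooth muscle forms. Light chains were led by Myl6 (564 ± 26.2 TPM) and Myl12a (129 ± 4.53 TPM), against 1.33 ± 0.804 TPM for the ventricular Myl2 and 0.61 ± 0.277 TPM for Myl3. No troponin had a mean above 10 CPM. All 4 tropomyosins were above 10 CPM, from Tpm4 (917 ± 30.9 TPM) to Tpm2 (72.1 ± 12.4 TPM).

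The CArG box, the site known for serum response factor, which controls actin genes, was sought in the same promoter windows. Only exact matches were counted, with CC, a run of A or T of fixed length, and GG. Sites that deviate from these letters were not sought, so a gene without a match may still hold such a site. Of the 4 actin genes with a window, 3 held it (Acta1, Actc1 and Actg1), of the smooth muscle list 1 of 10 (Myl9), and of all genes 1.62%. The windows of Actc1, at chr2:114052876-114053125 (minus strand), and Actg1, at chr11:120348496-120348745 (minus strand), are given 5′ to 3′ with the match in capitals, since both hold the box and the genes differed widely in level.
Actc1: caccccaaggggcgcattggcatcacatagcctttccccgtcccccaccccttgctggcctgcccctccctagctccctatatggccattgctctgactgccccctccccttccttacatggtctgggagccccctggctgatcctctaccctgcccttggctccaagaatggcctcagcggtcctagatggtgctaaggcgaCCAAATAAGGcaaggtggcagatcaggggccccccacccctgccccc
Actg1: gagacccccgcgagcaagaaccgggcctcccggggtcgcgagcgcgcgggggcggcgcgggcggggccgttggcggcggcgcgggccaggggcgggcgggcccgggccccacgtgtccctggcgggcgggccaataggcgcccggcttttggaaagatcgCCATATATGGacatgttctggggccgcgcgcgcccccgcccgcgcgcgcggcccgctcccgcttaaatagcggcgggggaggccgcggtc
The box began 47 bases before the start of Actc1 and 90 bases before that of Actg1. Srf itself was at 39.4 ± 4.36 CPM, and its muscle cofactor Myocd at 1.01 ± 0.695 CPM.

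Pairs of proteins with a muscle form and a form used elsewhere were set side by side per length, chosen after their values had been seen. The nonmuscle cytochrome c oxidase subunit Cox6a1 was at 693 ± 33.6 TPM and its muscle form Cox6a2 at 6.14 ± 1.57 TPM, a ratio of 80.8 to 167 over the 4 libraries. For lactate dehydrogenase, Ldha, the form of glycolytic cells, exceeded Ldhb, the main form of the heart, 26.5 to 40.2 times. Slc2a1, the widespread glucose transporter, exceeded the insulin-responsive Slc2a4 of muscle 127 to 349 times. The smallest ratios were those of phosphofructokinase, with Pfkl 4.57 to 5.68 times Pfkm, and of tropomyosin, with Tpm4 5.96 to 7.27 times Tpm1, which cells outside muscle also make. In these 18 pairs the other form was above the muscle form in each library, which the choice of pairs after seeing the values may have fixed. The mitochondrial creatine kinases, which are not among the pairs, were close to 0, with 3, 6, 2 and 4 counts for Ckmt1 and 4, 1, 0 and 0 counts for the muscle form Ckmt2. Cpt1b, the carnitine transferase of muscle, shares 81.4% of its exon bases with another gene, so its low level is uncertain.

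**Figure D4:**
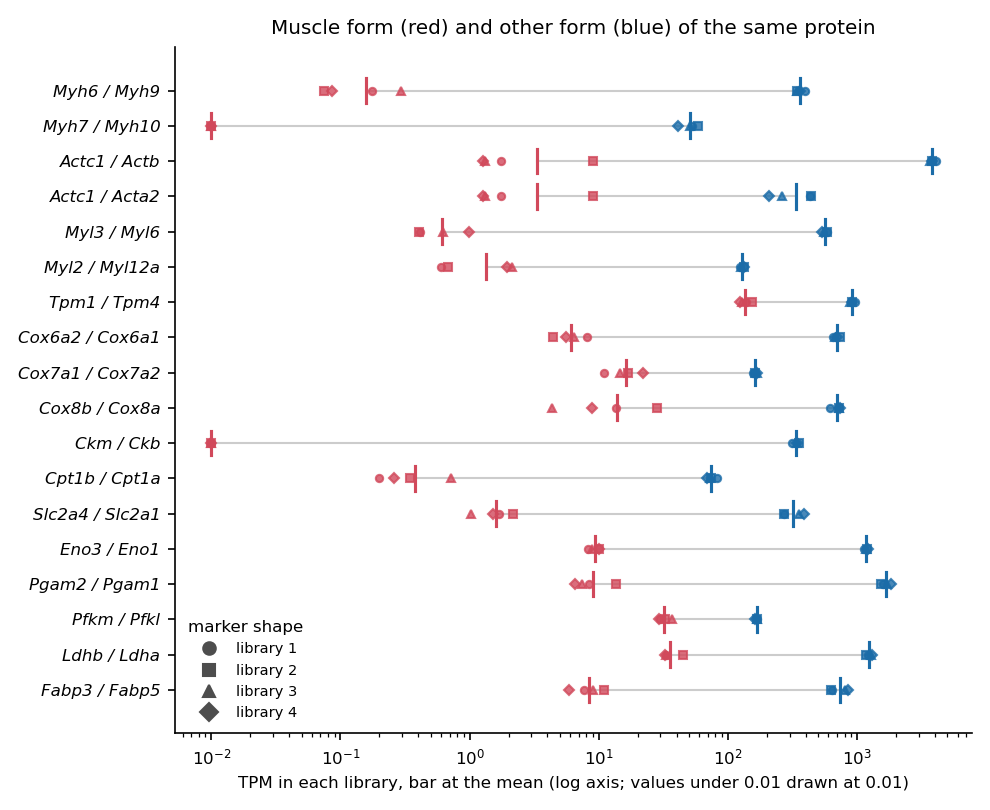
TPM of the muscle form (red) and the other form (blue) of 18 pairs on a log axis, with 1 marker per library and bars at the means. Muscle form means that of heart muscle, so Ldha and the smooth muscle Acta2 are drawn as other forms. In every pair the 4 blue markers lie to the right of the 4 red markers, with the narrowest gaps for Pfkm and Pfkl and for Tpm1 and Tpm4.

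Calcium handling genes were split between muscle-specific and widely expressed members. Beside Atp2a2 and Slc8a1, whose levels are given above, the calcium sensor genes Calm2 and Calm3 were at 260.1 ± 3.63 CPM and 282 ± 12.2 CPM. The release channel Ryr2, the sarcoplasmic calcium-binding protein Casq2 and the pump inhibitor Sln, which are muscle genes, were at 0.457 ± 0.435 CPM, 1.99 ± 0.822 CPM and 0. The receptors Itpr1, Itpr2 and Itpr3, the release channels of other cells, were at 79.5 ± 9.08 CPM, 60.8 ± 4.71 CPM and 57.1 ± 5.2 CPM. Among cardiac transcription factors, 15 of 23 were above 1 CPM. Tbx20 (189 ± 41 CPM), Mef2a (154 ± 4.4 CPM), Gata4 (46.3 ± 8.52 CPM), Gata6 (22.6 ± 6.4 CPM) and Hand2 (7.57 ± 0.835 CPM) were present, whereas Tbx5 was at 0.233 ± 0.335 CPM, and Irx4, Hand1 and Isl1 had 0 counts. The myeloid factor Spi1 (108 ± 6.18 CPM), the mesenchymal factors Prrx1 (183 ± 19.1 CPM) and Zeb2 (252 ± 14.3 CPM), and the endothelial Sox18 (64.8 ± 6.69 CPM) were also present.

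All 21 genes of glycolysis and lactate transport were above 1 CPM and took 1.61% ± 0.0989 of the counts, with Pkm at 2831 ± 161 CPM, Gapdh at 2389 ± 208 CPM, Eno1 at 2044 ± 110.2 CPM and Ldha at 1328 ± 94.9 CPM. The 45 nuclear genes of the respiratory chain took 0.36% ± 0.012, led by the ATP synthase subunits Atp5b (533 ± 28.6 CPM) and Atp5a1 (393 ± 7.25 CPM), and the 13 protein genes of the mitochondrial genome took 1.64% ± 0.0401. Genes of fatty acid oxidation had a median of 42 CPM, with Cpt1a at 183 ± 10.4 CPM and the trifunctional enzyme subunit Hadha at 172 ± 3.86 CPM. The coactivator Ppargc1a, which drives mitochondrial genes in heart muscle, was at 0.488 ± 0.145 CPM.

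Targets of hypoxia-inducible factors, the regulators that oxygen keeps unstable, were above 1 CPM in all 22 cases in these slices kept at 21% oxygen, with a median of 165 CPM. The angiogenic factor Vegfa was at 650.2, 775, 896 and 889.7 CPM, the collagen hydroxylase P4ha1 at 713 ± 17.8 CPM and the oxygen sensor Egln3 at 286, 263, 384 and 453 CPM. No library of fresh hearts or of hypoxic slices enters this description, so these levels are not set against a reference. Vegfa and Egln3 were lower in libraries 1 and 2 than in libraries 3 and 4. The median deviation of the list was -0.22, -0.12, 0.12 and 0.18 on the log2 scale. The NRF2 target Prdx1 (1531, 1665, 2037 and 2211 CPM) was also lower in libraries 1 and 2, and the median deviation of the 12 NRF2 targets above 1 CPM was -0.20 in library 1 and 0.17 in library 4.

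Inflammatory mediators were uneven in level. Complement genes were above 1 CPM in 17 of 22 cases, with C3 at 697, 956, 665 and 512 CPM, its receptor C3ar1 at 638 ± 78.2 CPM and the inhibitor Serping1 at 496 ± 29.9 CPM, whereas C9 and C8a of the membrane attack complex had 0 counts. Of the chemokines, 14 of 25 were above 1 CPM, led by Cxcl12 (301 ± 61.9 CPM) and Cx3cl1 (132 ± 28 CPM), and the lymphocyte attractants Ccl5, Cxcl9 and Cxcl13 were under 0.2 CPM. The growth factor of macrophages, Csf1, was at 259 ± 36.7 CPM and Tgfb1 at 195 ± 4.49 CPM. Il6 was at 5.03 ± 0.819 CPM, Tnf at 3.65 ± 0.425 CPM and Il1b at 0.119 ± 0.144 CPM, while the antagonist Il1rn was at 71.9, 50.7, 103 and 92.2 CPM. Interferon-stimulated genes had a median of 5 CPM, with Bst2 at 65 ± 3.42 CPM, Isg15 at 1.98 ± 0.359 CPM and Mx1 at 0.0489 ± 0.0393 CPM. Of MHC class I, H2-D1 was at 889 ± 72.6 CPM and B2m at 763 ± 66.2 CPM. The class II genes H2-Aa and Cd74 were at 0.166 ± 0.298 CPM and 0.975 ± 0.394 CPM, and H2-Ab1 at 11.6, 12.8, 22.5 and 30.3 CPM. Of growth factors, Igf1 was at 654 ± 58.7 CPM and Pdgfb at 182 ± 17.8 CPM, and Areg and Egf were under 1 CPM. Arginase, Arg1, was at 259, 159, 405 and 443 CPM, highest in library 4.

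All 30 genes of cell division were above 1 CPM, with Mki67 at 63.5, 82.6, 79.2 and 68.5 CPM, Top2a at 69 ± 8.41 CPM, the replication clamp Pcna at 184 ± 18.9 CPM and Cdk1 at 25.6 ± 3.15 CPM. Library 4 lay under the mean in 27 of the 30 genes. The inhibitors Cdkn1a (209 ± 17.3 CPM), Cdkn1b (96.2 ± 11.4 CPM) and Cdkn2a (16.1 ± 1.79 CPM) were also present. Among chaperones, Hspa8 (1808 ± 53.1 CPM) and the collagen chaperone Serpinh1 (1572 ± 172 CPM) were highest, Hspa5 of the endoplasmic reticulum was at 1208 ± 23.1 CPM, and the stress-inducible Hspa1a and Hspa1b were at 35.1 ± 9.72 CPM and 76.1 ± 22.4 CPM. Immediate early genes included Fosl2 (242 ± 21.2 CPM), Atf3 (209 ± 29.3 CPM), Jun (149 ± 9.71 CPM) and Fos (23 ± 1.57 CPM). The stress factor Atf4 was at 198 ± 11.4 CPM and its target Asns at 52.7 ± 5.57 CPM. Ribosomal protein genes were above 1 CPM in 78 of 79 cases with a median of 408 CPM, led by Rplp0 (1152 ± 59.9 CPM). Rpl24 (0.479 ± 0.175 CPM) and Rps10 (2.84 CPM) were the lowest and share 47% and 28.7% of their exon bases with other genes.

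Noncoding RNAs took a small share. Genes annotated as long noncoding RNAs held 0.797% ± 0.0267 of the counts, against 94.8% ± 0.174 for protein-coding genes of the nuclear genome. Malat1 (1256, 1538, 1492 and 1344 CPM) and Neat1 (909, 664, 1064 and 1150.4 CPM), which stay in the nucleus, were highest by share of counts, and Neat1 was lowest in library 2. The imprinted Meg3 (200.4 ± 46.4 CPM), H19 (81.9, 77.5, 174 and 106 CPM) and Rian (82.8 ± 22.4 CPM) and the small nucleolar RNA host Gas5 (117 ± 4.83 CPM) followed, with H19 highest in library 3. Mir22hg was at 70.9 ± 4.9 CPM, and Cct6a (136 ± 6.43 CPM), Zfp469 (76.8 ± 5.68 CPM) and Tmem134 (73.3 ± 6.16 CPM) carry a noncoding type in the annotation release used although their symbols are those of protein genes. Mhrt, a long noncoding RNA of cardiomyocytes, had 0 counts. Among RNAs without a usual poly(A) tail, 4 of 17 were above 1 CPM, with Rn7sk at 3.15 ± 0.267 CPM, the histone genes Hist1h1c and Hist1h2bc at 109 ± 2.48 CPM and 82 ± 1.64 CPM, and Rmrp and Terc at 0. Nuclear ribosomal RNA took 0.701% ± 0.127 of the counts.

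How the reads were counted bears on several of these levels. Protein-coding genes that share at least 90% of their exon bases with a gene on the same strand had a median of 0 CPM (n = 180), those with a partner on the opposite strand also 0 CPM (n = 54), and those without any overlap 1.96 CPM (n = 15429). With 30 to 90% of the bases shared, the median was 0.277 CPM for a partner on the same strand (n = 233) and 2.52 CPM for one on the opposite strand (n = 433), the latter not below that of genes without overlap. Levels of overlapping genes are uncertain, since how shared reads were assigned is not stated, and whether strand was used is not given in the sources used here. Nuclear copies of mitochondrial genes on chromosome 1 took 0.818% ± 0.0255 of the counts, and the copy Gm28661 was at 1876 ± 84.6 CPM beside 1864 ± 81.6 CPM for mt-Co2. The highest of these copies was Gm29216 (2363 ± 278 CPM). How reads that fit both places were assigned is not stated, so the levels of these copies and of the mitochondrial genes they copy are uncertain. The same holds for the share of counts of the mitochondrial protein genes.

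The 4 libraries were close to each other. The common biological coefficient of variation estimated by edgeR over 19543 genes (10 or more counts summed over the libraries) was 13.1%, and it was 10.9% without library 2 and 15.3% without library 3, the lowest and the highest value with a library left out. The median of DESeq2's gene-wise dispersions gave a lower value, 7.8%. The median coefficient of variation was 19% for genes of 1 to 10 CPM, 7.24% for 10 to 100 CPM, 5.41% for 100 to 1000 CPM and 6.87% above 1000 CPM. Counting error alone would give 12% in the lowest of these classes and 0.524% in the highest. Of the 4177 protein-coding genes with at least 50 CPM, 38 (0.91%) differed more than 2-fold between their highest and lowest library. The steadiest were the RNA-binding Zc3h18 (67.3, 67.6, 67.2 and 67.5 CPM), the lipid transporter Abca2 (51.1, 51.3, 50.9 and 51 CPM), Sipa1 (119.7 ± 0.483 CPM), the mitochondrial dehydrogenase Ogdh (158 ± 0.801 CPM), the splicing factor Prpf6 (63.4 ± 0.323 CPM), Hsbp1 (99.8 ± 0.54 CPM), Rbm6 (68.4 ± 0.39 CPM), the chromatin remodeler Smarca5 (85.4 ± 0.51 CPM), the proteasome subunit Psma4 (77.9 ± 0.496 CPM), Arhgdia (623 ± 4.1 CPM), Sel1l (244 ± 1.63 CPM) and Eif4e2 (78.5 ± 0.545 CPM).

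Among the most variable genes, opposite orders of libraries 2 and 4 were the most frequent. Of the 38 genes, 18 were highest in library 2 and lowest in library 4, and 9 were highest in library 4 and lowest in library 2. The first order held for the guidance cue Slit3 (87, 206, 127 and 59.1 CPM), the nitric oxide receptor subunit Gucy1a1 (97.4, 183, 125 and 40.3 CPM), Eln, Mfap4 (119 ± 52.2 CPM), the Wnt inhibitor Sfrp1 (453, 641, 436 and 214 CPM), Fbln1 (189.7 ± 74.3 CPM), Timp3, Mgp (862, 953, 709.6 and 451 CPM), Cryab, Clca3a1, Gas1, Thbs2, Acta2, Svep1, Slit2, Lgi2, Heyl and Cdh11. The second order held for the collagenase Mmp13 (99.3, 51.9, 173 and 257 CPM), the coagulation factor F13a1 (129.9, 45.7, 169 and 179 CPM), Slamf7 (53.9, 28.3, 70.7 and 94 CPM), Tnfrsf9 (53.9, 23.5, 59.4 and 76.6 CPM), Fcgr2b (197, 153, 262 and 350.4 CPM), Arg1, Cd300c2, the angiopoietin Angpt2 (274, 178, 273 and 366 CPM) and the retinoic acid-degrading enzyme Cyp26b1 (37.8, 25.8, 69.5 and 83.5 CPM). The chemokine Ccl6 (50.3, 51.4, 127 and 96.9 CPM) and Cd300ld (109, 53.7, 152 and 139 CPM) were highest in library 3. The small heat shock protein Cryab was at 45.4, 101, 43.8 and 39.5 CPM, high in library 2 and similar in the other 3.

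The genes in which each library differed most from the other 3 were taken among those of at least 50 CPM. Against the mean of the other 3, library 1 was higher in Rgs5 by 1.49 on the log2 scale, and higher in Eln, Fbln5, Cfd and Spon1 by 0.59 to 0.67. It was lower in Ier3, Ccl6, Hilpda, Ero1l and Hmox1, from -0.82 to -0.54. Library 2 was lower in F13a1 (-1.79), Mmp13, Tnfrsf9, Slamf7 and Cd300ld and higher in Slit3 (1.24), Cryab, Gucy1a1, Eln and Mfap4. Library 3 was lower in the adipsin gene Cfd (-0.99), Rgs5, the desaturase Scd1, Cilp and Fcrls and higher in Ccl6 (1.01), H19, F13a1, Cd300ld and Cyp26b1. Library 4 was lower in Gucy1a1 (-1.69), Eln, Sfrp1, Fbln1 and Slit3 and higher in Mmp13 (1.42), Cyp26b1, Slamf7, Tnfrsf9 and F13a1. Among the 4195 genes of at least 50 CPM, library 4 was the highest in 35.3% and library 2 the lowest in 38.4%.

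**Figure D5:**
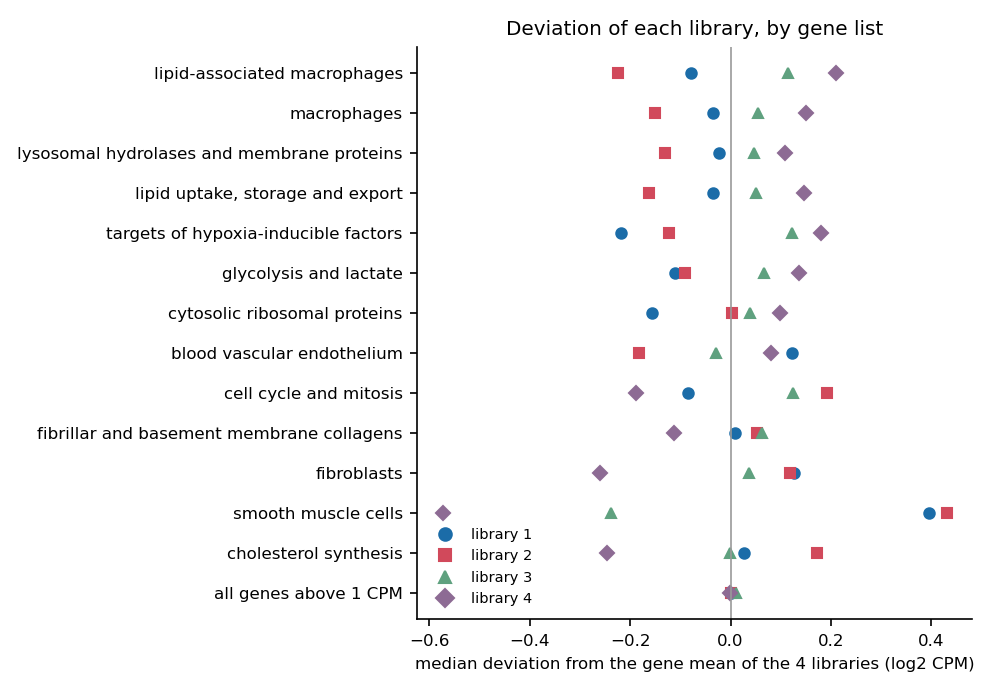
Median deviation of each library from the gene mean of the 4 libraries, in log2 CPM, over the members above 1 CPM of 13 lists and over all genes above 1 CPM. Library 4 (diamonds) lies to the right and library 2 (squares) to the left for macrophage, lysosomal and lipid lists, the order is turned for smooth muscle, cholesterol synthesis and cell cycle genes, and all genes lie at 0.

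Seen over whole lists, library 4 lay above the mean in 16 of 16 genes of lipid-associated macrophages, 20 of 21 macrophage markers and 21 of 22 targets of hypoxia-inducible factors. It lay above the mean in 2 of 20 fibroblast markers, 2 of 18 collagens and 1 of 11 smooth muscle markers. Library 2 was under the mean in 16 of the 16 genes of lipid-associated macrophages. Of all 14225 genes above 1 CPM, 49.9% were above the mean in library 4. Whether these differences come from the share of each cell type in a slice or from the level per cell was not tested. The summed levels of the macrophage and lipid-associated macrophage lists were lowest in library 2, in which the mesothelial genes were highest. The summed level of the resident macrophage list was 781 CPM in library 2 and 739 CPM in library 4. Gas6 alone made up 532 CPM of the mean of 819 CPM of that list. Over its 6 members above 1 CPM, the median deviation on the log2 scale was 0.02 in library 2 and 0.0002 in library 4. By its sum and its median, the resident list thus did not set these libraries apart. Its member F13a1 differed between them, at 45.7 CPM in library 2 and 179 CPM in library 4. Of the 6 members, 4 lay above the mean in library 2 and 3 in library 4. Libraries 1 and 4, at 34659 and 44961 CPM for lipid-associated macrophages, were both low in mesothelial genes.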

How the data were processed

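RNA from cultured heart slices was sequenced in 16 libraries, of which the 4 of WT untreated slices were used here and the other 12 columns left out, except for 1 alternative scaling. The deposited values are raw counts, whole numbers for 55487 Ensembl genes. Reads were aligned by the authors with STAR (mm10, the GRCm38 build), and GenomicAlignments was used for counting at genes. The methods name Ribo-Minus and ScriptSeq, the labels a TruSeq mRNA kit, and the strand setting and the treatment of reads with several positions are not given in the sources used here. The treatment text of the labels describes hypoxia for every sample, and the 4 libraries were taken as untreated from their own label. Overlapping genes can lose reads in such counting.

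Symbols, exon lengths and overlaps came from GENCODE release M21, in which 55227 of the identifiers were found. Counts were scaled by TMM over the 4 libraries in edgeR 4.0.16 (R 4.3.3) and levels per length were computed as TPM. Spread was described by SD, by the coefficient of variation and by edgeR's common dispersion over genes with at least 10 counts in total. Deviations were taken from log2 CPM with a prior count of 2. No test between groups was made, since there is 1 group. A simulation with a known spread was also run through the procedure, and its outcome is not reported here. Pairs of libraries differed by more than sampling noise (chi-square per degree of freedom of 7.58 or more), so none was the same library deposited again, while libraries from the same mouse could differ by as much.

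Genes were named by rules: the 30 highest, the 12 most and 12 least variable protein-coding genes of at least 50 CPM, 10 noncoding RNAs, the paralog families and sex chromosome genes, the highest and, for cell types, lowest members of each of 66 hand-written lists (4 symbols unmatched), Nkx2-5, and the 5 genes that most set each library apart in each direction. Some of these genes are not reported here. Others were chosen after their values were seen. Members and lists were chosen with earlier results of these data known. Alternatives were other scalings (no TMM, size factors of DESeq2 1.42.0, TMM over 16 libraries, totals without mitochondrial genes), each library left out, other filters, transcript lengths and promoter windows.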

Additional observations from a re-analysis of the deposited data

Results flagged for a closer look

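In 3 of 130 genes and lists examined, 1 of the 4 libraries lay so far from the others that its gap to the nearest, divided by the range, was above the 95% critical value of Dixon's test. Not every gene named above was among the 130, so the 3 are not a full list of genes with 1 library apart. Actc1 and Tnnt2, for example, were far higher in library 2 than in the others and are not among the 3. Chance alone flags about 1 in 20 such groups, a rate that does not hold for genes such as Rgs5 and Cryab, which were examined because they varied most. Rgs5, a pericyte gene, was at 97.6, 41.6, 31 and 32.5 CPM in libraries 1 to 4, with library 1 apart and a ratio of 0.841. The small heat shock protein gene Cryab was at 45.4, 101, 43.8 and 39.5 CPM, with library 2 apart and a ratio of 0.904. The summed level of the tissue-paired respiratory chain and creatine kinase genes was 598, 684, 689 and 699.6 CPM, with library 1 apart and a ratio of 0.843. The creatine kinase gene Ckb made up 315 CPM of the mean of 668 CPM of this list. Ckb was itself at 283, 325, 326 and 328 CPM. The mesothelial genes, with 2 high and 2 low libraries, do not meet this criterion although their levels differ most.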

How the results depend on the processing

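Of the 703 values of lists, shares, counts of genes and spread recomputed under other settings, 696 stayed within 1 SD of the 4 libraries, or within 1.5 times for counts and spread, and 7 did not. With mitochondrial genes left out of the total, the summed levels were 16701 CPM for mitochondrially encoded proteins, 3825 CPM for transcription factors outside the cardiac list, 2217 CPM for calcium handling and 204 CPM for RNAs without a usual poly(A) tail, and protein-coding genes of the nuclear genome took 96.4% of the counts, all higher because the total is smaller. The median of DESeq2's gene-wise dispersions gave a coefficient of variation of 7.8% in place of 13.1%, and the values with a library left out lay between 10.9% and 15.3%. Over members above 10 CPM, which are only Aldh1a2 and Tbx18, the deviation of library 2 in the epicardial list was -0.068 in place of 2.73 on the log2 scale. The number of genes above 1 CPM was 14225, and 13433 were above it in every library. For single genes, 73 of 1197 values moved by more than 1 SD, of which 61 were TPM with the length of the longest transcript in place of the union of exons. The alternatives that leave out the nuclear copies of mitochondrial genes or overlapping members were chosen after seeing the data. At 18653443 counts or more per library, levels under about 0.161 CPM in a single library rest on 3 counts or fewer. No paired analysis was possible because the description has 1 group and its values come from no test between groups.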
